A study of Mus musculus with 18 samples.

Results

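PreL is the label of 3 of the 18 RNA-seq libraries in this study of sorted mouse germ cells, and its libraries were compared here with the 15 of the other 5 populations. PreL was set, 2-sided, against each of Undiff.Spg, Diff.Spg, LZ, PD and RS, every population having 3 libraries. Of 18547 genes with enough reads to test, 50 were higher in PreL than in every other population and 163 were lower than in every other population. All groups came from testes of adult males that carried the Stracre-GAG-tdTomato transgenes, and no group lacks them. The strain is labelled C57BL/6, while the protocol writes C57BL/5 for the background. Cells were sorted on an Aria 3. The labels give neither the promoter that drives the Cre, nor the gates of the sort, nor an exact age, nor whether replicates are separate or pooled animals. The p-values thus rest on the spread between libraries of a group, and part of that spread may be technical.

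The names are not explained in the labels. PreL, LZ, PD and RS are commonly used for preleptotene, leptotene/zygotene and pachytene/diplotene spermatocytes and round spermatids, and Undiff.Spg and Diff.Spg for the undifferentiated and differentiating spermatogonia that come before them. A preleptotene cell is a germ cell in the last S phase before meiosis, in which the genome is copied once for both meiotic divisions. Retinoic acid switches on Stra8 and Meiosin around this time, and their protein products together activate genes of the meiotic programme. E2F transcription factors drive the genes of DNA synthesis in dividing cells.

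Library totals ran from 11777947 to 16607462 counts. Levels are CPM, counts scaled to library totals after TMM, and differences are log2 fold changes of PreL minus the other group with their SE. A gene was called at an edgeR adjusted p under 0.05 and at least a 2-fold difference. The 3 PreL libraries were less alike than those of most groups: PreL replicate 2 correlated at 0.961 and 0.967 with replicates 1 and 3 in log2 CPM, which correlated at 0.983 with each other. PreL replicate 2 also held more transcripts of late germ cells. Over a list of 24 genes of pachytene cells and spermatids, the summed level was 1347 CPM in PreL replicate 2, 766 in replicate 1 and 972 in replicate 3, against 363 to 734 in the spermatogonia, 672 to 1276 in LZ, 22876 to 23619 in PD and 28859 to 32295 in RS. PreL replicate 2 was the highest PreL library for 23 of the 24 genes, with a median of 4.99 times the mean of the other PreL libraries. LZ replicate 2 was the highest LZ library for 18 of the 24. The counts of genes higher or lower than in every other group, and of the late list, are therefore given with and without PreL replicate 2. Counts of the further lists are with all libraries unless stated. In bulk samples, fewer cells of a type and less RNA per cell cannot be told apart.

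The 4 genes of highest PreL level among the 50 were Esx1, Ptms, Melk and E2f2. Esx1 is an X-linked homeobox gene of placenta and germ cells, Ptms encodes parathymosin, a small acidic nuclear protein, Melk encodes a kinase of proliferating cells, and E2f2 encodes an activating E2F factor. Their promoters are shown because these genes lead the set and because E2F, CCAAT and CHR elements are known from cell cycle promoters. The windows run from 250 bases before to 50 bases after the start in RefSeq (build GRCm38.p6), 5′ to 3′. They lie at chr4:136172024-136172323, plus strand for E2f2, chrX:137120277-137120576, minus strand for Esx1, chr4:44300667-44300966, plus strand for Melk and chr6:124917897-124918196, minus strand for Ptms. Capitals mark matches, on either strand, to an E2F element (TTTCCCGC, TTTGGCGC, TTTCGCGC or TTTGCCGC), CCAAT, a CHR element (TTTGAA or TTCGAA) and CNCCTCAG, a motif described at promoters bound by STRA8.
E2f2: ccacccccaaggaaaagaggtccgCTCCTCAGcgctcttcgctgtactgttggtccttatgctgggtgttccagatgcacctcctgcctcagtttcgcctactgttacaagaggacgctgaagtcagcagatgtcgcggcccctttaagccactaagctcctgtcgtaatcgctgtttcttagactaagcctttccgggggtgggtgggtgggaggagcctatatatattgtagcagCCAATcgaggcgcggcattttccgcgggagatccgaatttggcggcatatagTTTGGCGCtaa
Esx1: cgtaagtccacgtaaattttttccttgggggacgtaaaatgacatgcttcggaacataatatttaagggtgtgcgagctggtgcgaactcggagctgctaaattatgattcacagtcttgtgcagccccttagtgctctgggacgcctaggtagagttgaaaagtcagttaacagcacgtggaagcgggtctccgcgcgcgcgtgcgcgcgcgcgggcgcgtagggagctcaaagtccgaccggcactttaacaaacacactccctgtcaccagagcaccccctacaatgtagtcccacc
Melk: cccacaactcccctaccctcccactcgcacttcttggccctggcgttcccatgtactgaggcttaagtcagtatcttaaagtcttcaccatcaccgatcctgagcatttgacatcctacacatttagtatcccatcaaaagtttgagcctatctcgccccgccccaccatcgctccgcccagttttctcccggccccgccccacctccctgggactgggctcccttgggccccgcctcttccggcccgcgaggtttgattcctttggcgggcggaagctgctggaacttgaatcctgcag
Ptms: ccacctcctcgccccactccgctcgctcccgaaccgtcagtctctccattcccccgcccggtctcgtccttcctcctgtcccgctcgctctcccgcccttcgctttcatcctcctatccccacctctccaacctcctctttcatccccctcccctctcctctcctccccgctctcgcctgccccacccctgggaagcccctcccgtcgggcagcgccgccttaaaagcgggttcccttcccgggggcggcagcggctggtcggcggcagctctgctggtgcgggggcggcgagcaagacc
E2f2 held TTTGGCGC starting 40 bases after its start, CCAAT 13 bases before it and CTCCTCAG 226 bases before it. The matches do not overlap each other. The RefSeq start of E2f2 lies 120 bases from the GENCODE gene start, that of Melk 41, that of Esx1 1757 and that of Ptms 2157. The windows of Esx1, Melk and Ptms held none of these letters. Promoters were found for 37 of the 50 higher genes and for 13179 of all tested genes. An E2F element was in 2.70% of the 37 and in 3.68% of all, and CCAAT in 29.7% of the 37 and in 38.6% of all. CHR elements were in 16.2% of the 37 and in 14.3% of all, and CNCCTCAG in 10.8% of the 37 and in 9.33% of all. A match is a description of the letters and not a binding site.

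Esx1 (ENSMUSG00000023443, chrX:137115397-137122083 in GENCODE M21 on GRCm38, minus strand) had 849, 566 and 848 CPM in PreL, against 348, 270.5 and 242 in LZ. Its levels were 236, 190.4 and 182 CPM in Diff.Spg, 12.5 to 18.5 in Undiff.Spg, 1.64 to 3.66 in PD and 25.5 to 36.9 in RS. All PreL libraries stood above all 15 others, with replicate 2 the lowest of PreL. The smallest difference was to LZ, 1.40 ± 0.23 (log2, SE; adjusted p = 8.89e-05), and it was 1.57 without PreL replicate 2. The difference was 1.90 ± 0.23 to Diff.Spg (adjusted p = 6.74e-06) and 5.56 ± 0.28 to Undiff.Spg (adjusted p = 5.72e-11).

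E2f2 (ENSMUSG00000018983, chr4:136172394-136196057, plus strand) had the largest smallest difference among the genes of the set at 10 CPM or more apart from Rpsa-ps10, a pseudogene that is given below. It stood at 154, 109.8 and 149 CPM in PreL, against 40.1, 35.5 and 40.5 in Diff.Spg and 30.7, 31.9 and 31.1 in LZ. Undiff.Spg had 3.72 to 5.84 CPM, PD at most 1.74 and RS at most 0.431. PreL stood apart from every other group. PreL was higher than Diff.Spg by 1.83 ± 0.23 (log2, SE; adjusted p = 9.00e-06) and than LZ by 2.14 ± 0.24 (adjusted p = 1.52e-06), and without PreL replicate 2 by 1.97 and 2.28. E2f1, another activator of the family, had 109, 100.3 and 141 CPM in PreL, against 115 to 143 in Diff.Spg. The libraries of both groups overlapped, and the difference of -0.13 ± 0.19 did not pass (adjusted p = 0.598).

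Ptms (ENSMUSG00000030122, chr6:124913681-124920103, minus strand) had 331, 227 and 337 CPM in PreL, against 105, 116 and 103 in Diff.Spg. LZ had 124, 95.2 and 89.3 CPM. Undiff.Spg had 31.7 to 35 CPM, and PD and RS at most 3.84 and 11.8. PreL exceeded its nearest group, Diff.Spg, by 1.47 ± 0.20 (log2, SE; adjusted p = 1.50e-05). Melk (ENSMUSG00000035683, chr4:44300876-44364675, plus strand) had 218, 154 and 216 CPM in PreL, against 88, 81.8 and 83.7 in Diff.Spg and 81.7, 73.8 and 71.7 in LZ. Undiff.Spg had 48.5 to 62.5 CPM, and PD and RS at most 3.09 and 2.42. Its nearest group was also Diff.Spg, at 1.21 ± 0.15 (adjusted p = 7.19e-06). Neither gene overlapped between PreL and any other group. Without PreL replicate 2 these differences were 1.63 for Ptms and 1.36 for Melk.

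**Figure D1:**
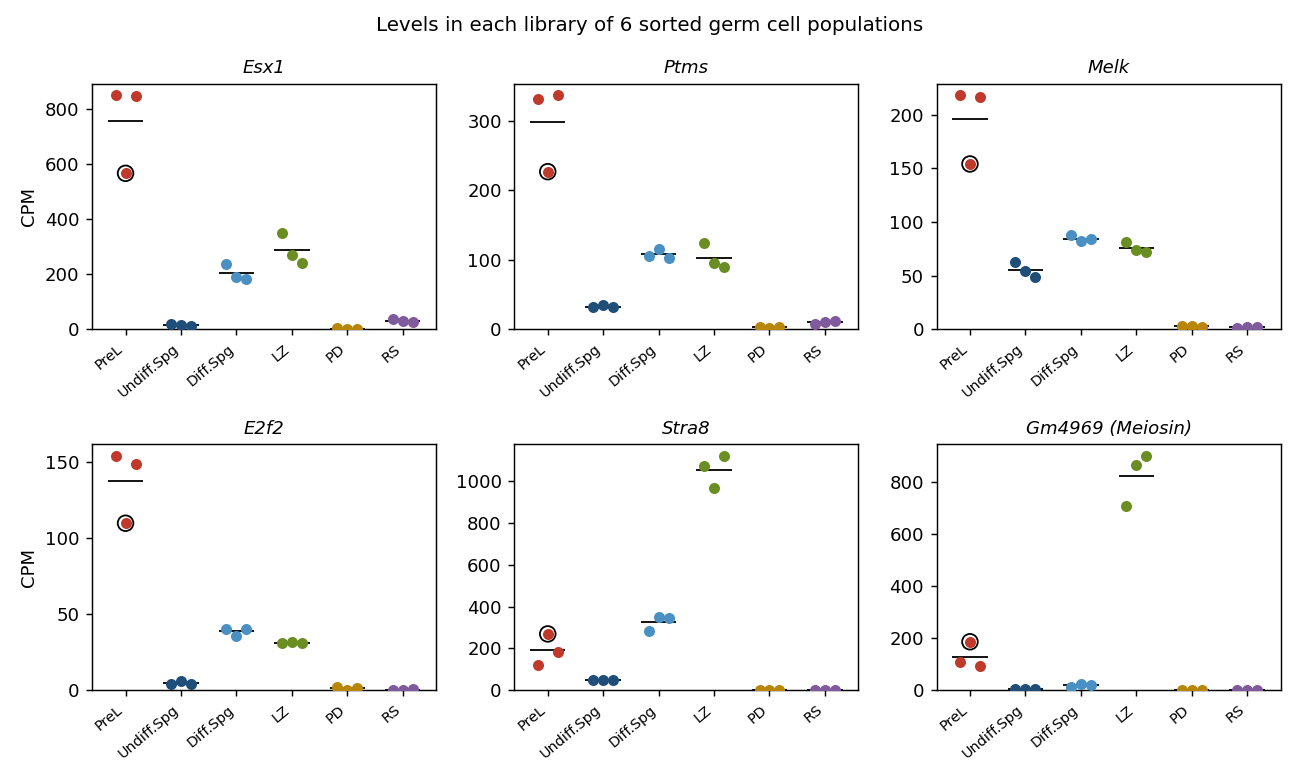
CPM of 6 genes in each of the 18 libraries, with PreL at the left, the mean of each group as a bar and PreL replicate 2 ringed. Esx1, Ptms, Melk and E2f2 stand highest in PreL with replicate 2 the lowest PreL library, while Stra8 and Gm4969 (Meiosin) stand highest in LZ.

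The label was then checked against the switch into meiosis. Stra8, the retinoic acid target gene, had 119, 269 and 183 CPM in PreL, against 48.6 to 50.2 in Undiff.Spg, 283 to 352 in Diff.Spg and 966 to 1121 in LZ. PreL was below LZ by 2.47 on the log2 scale (log2 -2.47 ± 0.30, adjusted p = 4.50e-06) and its level lay between those of the spermatogonial groups. The difference to Diff.Spg was -0.78 ± 0.29 (adjusted p = 0.0364), under 2-fold, and -1.12 without PreL replicate 2 (adjusted p = 0.00144), a call. Gm4969, which encodes MEIOSIN, had 109, 186 and 92.4 CPM in PreL, against 2.87 to 3.83 in Undiff.Spg, 10.9 to 23 in Diff.Spg and 708 to 901 in LZ. It was above both spermatogonial groups, by 5.25 ± 0.39 (adjusted p = 5.69e-09) and 2.83 ± 0.34 (adjusted p = 4.86e-06), and below LZ by a log2 difference of -2.67 ± 0.33 (adjusted p = 5.13e-06). Both genes thus peaked in LZ and not in PreL, and the group is called by its label here.

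Of the 15 tested members of the meiotic initiation list, 11 were called higher in PreL than in Undiff.Spg and 0 lower, where 17.6% of all genes were called higher and 23.2% lower. Against Diff.Spg 9 were higher and 0 lower (all genes 9.2% and 16.5%). Without PreL replicate 2, 10 were higher than in Undiff.Spg, and 8 were higher and 1 lower than in Diff.Spg. Against LZ 1 was higher and 9 were lower (all genes 13.1% and 14.6%), so this list lay between the spermatogonia and LZ. Meioc, which encodes a partner of YTHDC2 in meiotic prophase, had 495, 408 and 406 CPM in PreL, against 64.4 to 67.7 in Diff.Spg and 735 to 855 in LZ. Prdm9, the methyltransferase gene that places recombination hotspots, had 44.3 to 72.3 CPM in PreL, against 12.3 to 14.8 in Diff.Spg and 253 to 349.8 in LZ. The cohesin gene Rec8 had 91.6 to 109 CPM in PreL, against 24.4 to 34.8 in Diff.Spg and 100.1 to 132 in LZ, and its difference to LZ, -0.18 ± 0.15, did not pass (adjusted p = 0.37). It was highest in RS, at 244 to 307 CPM.

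Most genes that act later in prophase were lower in PreL than in LZ. All 11 tested synaptonemal complex genes and 9 of 12 genes of double-strand breaks and strand invasion were called lower (all genes 14.6%). The list medians were -1.92 and -2.27 (log2), beside 0.00 over all genes. Sycp3, an axis component, had 52.5, 66.2 and 82.8 CPM in PreL, against 312, 328 and 438 in LZ and 42.3 to 49.1 in Diff.Spg. Against Diff.Spg 5 of the 11 and 5 of the 12 were called higher, with 0 lower in both lists (all genes 9.2% and 16.5%). Without PreL replicate 2 the numbers higher were 5 and 3. Against Undiff.Spg 6 of the 11 were higher and 0 lower, and 4 of the 12 were higher and 1 lower (all genes 17.6% and 23.2%). Of the stem and progenitor genes, all 22 were called lower than in Undiff.Spg and 20 lower than in Diff.Spg (all genes 23.2% and 16.5%). Against LZ 8 of them were called higher and 1 lower (all genes 13.1% and 14.6%). Their summed level was 76.8 to 103 CPM in PreL, against 3875 to 4036 in Undiff.Spg and 598 to 626 in Diff.Spg. Kit, the receptor gene of differentiating spermatogonia, had 347, 261 and 278 CPM in PreL, against 647, 532 and 590.1 in Diff.Spg and 137 to 187 in LZ. Its difference to Diff.Spg (adjusted p = 2.09e-05) was just short of 2-fold lower. Without PreL replicate 2 it was -0.92 (log2), also under 2-fold, and it was called with the replicate number as a block (adjusted p = 4.16e-06).

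The mitotic and cyclin lists did not move alike. Of 27 genes of mitotic kinases and spindle, 17 were called higher and 0 lower than in Undiff.Spg (all genes 17.6% and 23.2%), and 14 higher and 1 lower than in LZ (all genes 13.1% and 14.6%). Without PreL replicate 2, 17 were higher and 1 lower than in LZ. Only Melk and Mki67 were called higher than in Diff.Spg, a share close to that of all genes (9.2%). Of 20 cyclins, CDKs and CDK inhibitors, 10 were called higher and 6 lower than in Undiff.Spg (all genes 17.6% and 23.2%). Against Diff.Spg 6 were higher and 5 lower (all genes 9.2% and 16.5%), and against LZ 6 higher and 2 lower (all genes 13.1% and 14.6%). The 6 lower than in Undiff.Spg and the 2 lower than in LZ are shares near those of all genes. The median of the mitotic list was 1.02 against LZ and 0.33 against Diff.Spg (log2). That of the cyclin list was 0.47 and -0.01, beside 0.00 and 0.02 over all genes. Mki67, the proliferation marker, had 1589, 960.1 and 856 CPM in PreL, against 519 to 587 in Diff.Spg and 737 to 772 in LZ, and PreL exceeded Diff.Spg by 1.04 ± 0.20 (adjusted p = 0.000447). Replicate 1 was far above the other PreL libraries, and without it the difference was 0.71, under 2-fold. It was also under 2-fold, at 0.99, without Diff.Spg replicate 3 and with total library size as the scaling. Plk1, the polo kinase gene of mitotic entry, had 355, 216 and 302 CPM in PreL and was higher than LZ by 2.90 ± 0.22 (adjusted p = 4.63e-08), while its difference to Diff.Spg was 0.54 ± 0.21 (adjusted p = 0.0445), under 2-fold. Aurkb, a kinase of chromosome segregation, had 88.1 to 129.8 CPM in PreL and was higher than LZ by 4.76 ± 0.20 (adjusted p = 5.49e-10). Bub1 was the member called lower than in LZ, at -1.79. Aurka was lower in PreL than in PD and RS, by log2 differences of -2.04 ± 0.18 (adjusted p = 1.35e-08) and -1.88 ± 0.18 (adjusted p = 2.81e-08).

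Replication genes differed most from PD and RS. Of 39 licensing and fork genes, 9 were called higher and 1 lower than in Undiff.Spg, 3 higher and 0 lower than in Diff.Spg, and 5 higher and 1 lower than in LZ. The shares called higher lay near those of all genes against Diff.Spg (9.2%) and LZ (13.1%), beside 17.6% of all genes against Undiff.Spg. Of all genes, 23.2% were called lower than in Undiff.Spg, 16.5% lower than in Diff.Spg and 14.6% lower than in LZ. Against PD 24 were higher and 1 lower (all genes 34.4% and 37.9%), and against RS 31 higher and 2 lower (all genes 37.3% and 40.1%). Dna2, a nuclease-helicase gene of Okazaki fragments, was the member in the set of 50, with 78.7, 62.8 and 60 CPM in PreL, against 29.6 to 36 in LZ and 29.9 to 32.8 in Diff.Spg. Its difference to the closest group was 0.91 without PreL replicate 1, which ended the call. Pcna, the sliding clamp gene, had 215, 149.8 and 287 CPM in PreL, against 174 to 246 in LZ, and its difference of 0.12 ± 0.21 did not pass (adjusted p = 0.706). Mcm2, a helicase subunit gene, had 441, 347 and 527 CPM in PreL, against 176 to 188 in LZ (1.26 ± 0.26, adjusted p = 0.000644) and 641 to 676 in Diff.Spg (-0.60 ± 0.25, adjusted p = 0.0671). Among 13 E2F and pocket protein genes, 6 were higher and 2 lower than in LZ (all genes 13.1% and 14.6%). The 2 lower are a share near that of all genes. Against Diff.Spg 3 were higher and 0 lower (all genes 9.2% and 16.5%). E2f7, a repressor of the family, had 86.8 to 148 CPM in PreL and was higher than LZ by 2.90 on the log2 scale. E2f3 was higher than LZ by 1.74.

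**Figure D2:**
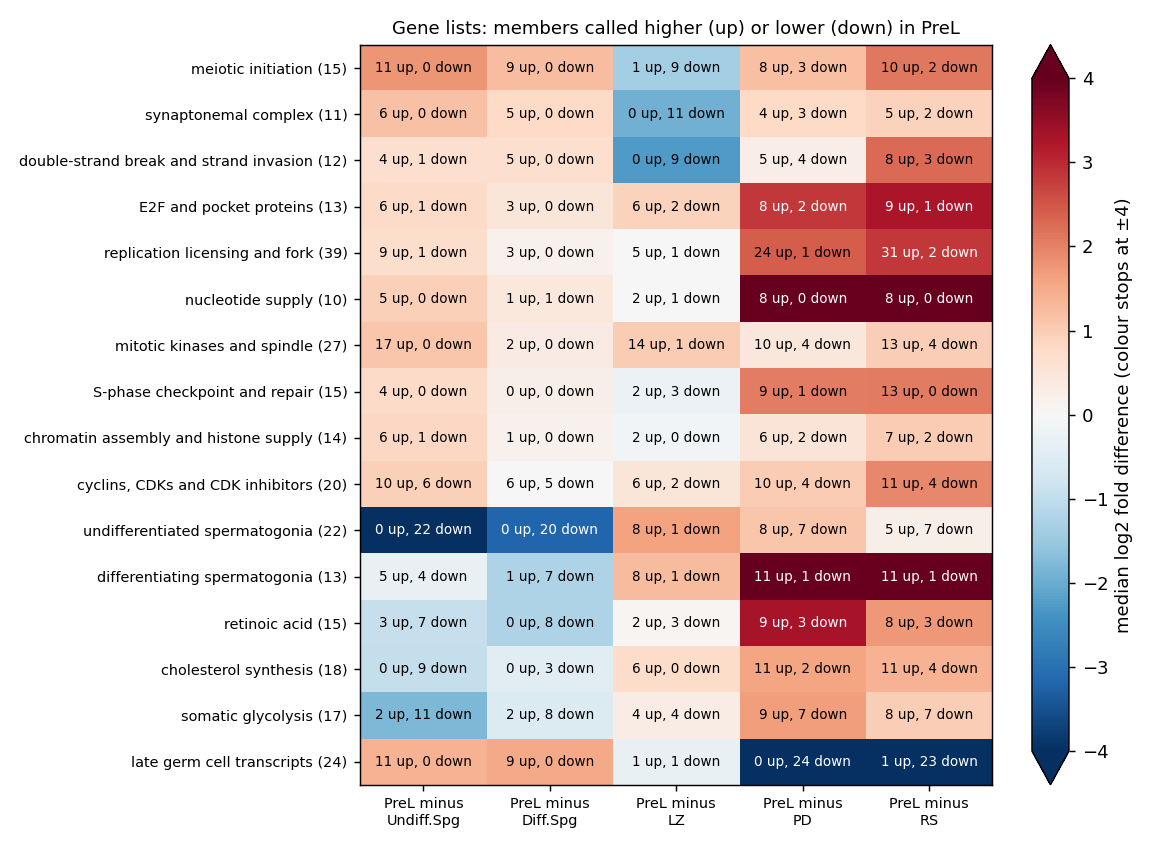
Median log2 difference of PreL minus each other group for 16 gene lists (rows, number of tested genes in brackets), with the number of members called higher (up) and lower (down) written in each cell. Medians of the meiotic lists are positive against spermatogonia and negative against LZ. Of the 12 genes of double-strand breaks and strand invasion, only 4 are called higher than in Undiff.Spg and 1 is lower. Late transcripts are lower than in PD and RS for 24 and 23 of 24 genes (all genes 37.9% and 40.1%).

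The 50 genes higher in PreL than in each other group are 0.27% of those tested. The libraries of PreL stood above all 15 others for 49 of the 50, which follows largely from their choice by the same values. Of all tested genes, this held for 443 (2.39%). The group closest to PreL was Diff.Spg for 22, LZ for 21, Undiff.Spg for 6, RS for 1 and PD for 0. The fold difference to the closest group ran from 2.01 to 7.10 with a median of 2.29 and an upper quartile of 2.64. PreL means ran from 1.33 to 754 CPM, and 34 genes had at least 10 CPM. PreL replicate 2 was the lowest PreL library for 36 of the 50. In 33 genes the PD and RS means were both under 5% of the PreL mean.

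Several members are transcription factors. Pou4f1, a POU factor known from sensory neurons, had 134, 98.3 and 87.1 CPM in PreL, against 53.7, 46.6 and 37.1 in LZ and 40.6 to 45.2 in Diff.Spg, and exceeded LZ by 1.22 ± 0.22 (adjusted p = 0.000175). Tshz3, a zinc finger homeobox gene, had 29.6, 14.3 and 16.6 CPM in PreL, against 5.08 to 8.59 in Diff.Spg (1.68 ± 0.34, adjusted p = 0.00068). Vax2, another homeobox gene, Lmo4, a LIM domain gene, and the zinc finger genes Zfp362 and Zfp282 also belong to the set. Of 15 tested homeobox and POU genes, 4 were called higher and 8 lower than in Undiff.Spg (all genes 17.6% and 23.2%), 4 higher and 7 lower than in Diff.Spg (9.2% and 16.5%), and 3 higher and 4 lower than in LZ (13.1% and 14.6%). Against PD 7 were higher and 2 lower (34.4% and 37.9%), and against RS 5 were higher and 5 lower (37.3% and 40.1%). The summed level of that list was 784 to 1122 CPM in PreL, against 509.7 to 601 in LZ, and Esx1 made up most of it.

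Other members encode enzymes and regulators in the nucleus and cytoplasm, described here gene by gene. Cdc25b, a phosphatase gene that activates CDK1, had 102, 69.8 and 61.3 CPM in PreL, against 35.2 to 39.5 in LZ (1.07 ± 0.16, adjusted p = 2.73e-05) and 29.9 to 33.2 in Diff.Spg, and its smallest difference was 0.82 without PreL replicate 1. Cdkn1a, the gene of the CDK inhibitor p21, had 20.1, 14 and 24.6 CPM in PreL, against 8.93 to 10.2 in Undiff.Spg (1.02 ± 0.21, adjusted p = 0.000386). That difference was 0.83 without PreL replicate 3 and 0.98 without Undiff.Spg replicate 2, so the calls of both genes rested on single libraries. Cdk2ap1 encodes a CDK2-associated protein and Setd6 a lysine methyltransferase. Ankle1, an endonuclease gene, had 63.2, 47.7 and 28.5 CPM in PreL, against 15.8 to 16.4 in Diff.Spg (1.53 ± 0.29, adjusted p = 0.000593). Pias3, a SUMO ligase gene, had 117, 79.7 and 83.9 CPM in PreL, against 27 to 46.7 in LZ (1.39 ± 0.26, adjusted p = 0.000258).

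Further members encode receptors, secreted or membrane proteins and signalling proteins. Kiss1r, the kisspeptin receptor gene, had 8.64 to 12.2 CPM in PreL, against 3.85 on average in Diff.Spg and 3.63 in LZ. It overlaps R3hdm4, also a member (67.9 to 95.3 CPM in PreL), on the opposite strand, and the strand setting of the counting is not given in the sources used here, so their reads cannot be told apart. Of the 50 genes, 14 overlap another tested gene in the annotation, among them Ptms with A230083G16Rik, and Car15 with Gm20518. Nrap, a muscle anchoring protein gene, and Cyp20a1, a cytochrome P450 gene, had 16 to 22.9 and 9.78 to 13.9 CPM in PreL. Rgs2, a regulator of G protein signalling, and Tceal9 had 8.46 to 20.9 and 17.6 to 31.7 CPM. Cxadr, Adgrb1, Mrc2, Nrbp2, Deptor, Rufy1, Ppp1r14a, Dusp12, Dpagt1, Kncn and Ap1s3 complete the members at 10 CPM or more. The 16 members below that level are Ncam2, Itih4, Avp, Myrfl, Spx, Lpl, ENSMUSG00000051107, Car15, Vax2, S1pr5, Shd, Zcchc18, Gyg, Glrb, Gm20518 and Pard3b, at 1.33 to 6.49 CPM.

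**Figure D3:**
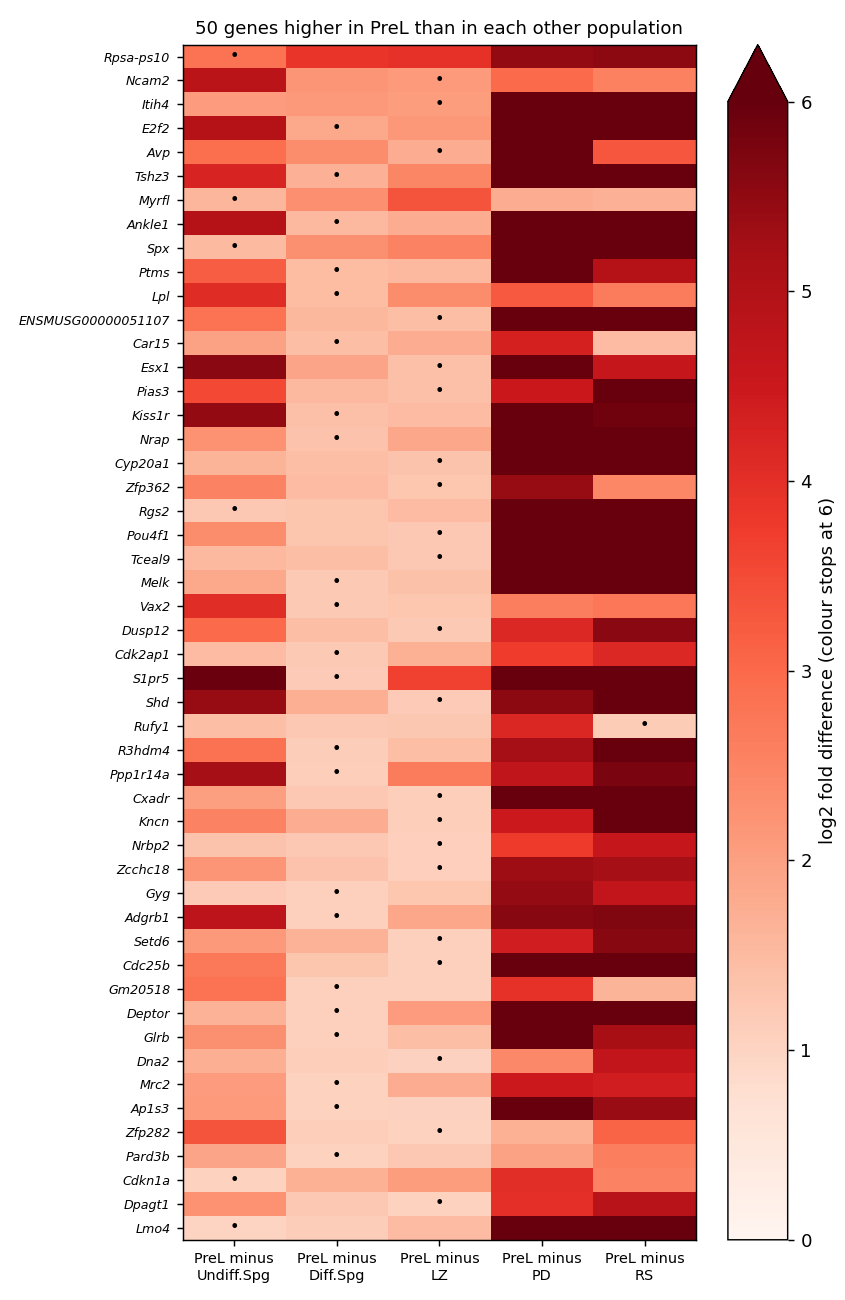
Log2 difference of PreL minus each of the 5 other groups (columns) for the 50 genes (rows, ordered by the smallest difference), with a dot on the closest group. The dots fall on Diff.Spg for 22 genes and on LZ for 21, and the differences to PD and RS are the largest for most genes.

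Rpsa-ps10, a ribosomal protein pseudogene, rested on 1 library. It had 40, 0.604 and 1.28 CPM in PreL, against 1.46 to 2.54 in Undiff.Spg, and without PreL replicate 1 its difference to the closest group was -1.09. Its reads may also be shared with its parent gene, and with the replicate number as a block the call was lost (adjusted p = 0.0873). Just inside the threshold were Lmo4 and Dpagt1 (1.01), which were both at 0.99 with the block. Just outside were Tmem88 (0.99) and Raver2 (0.98), which both passed without PreL replicate 2 (1.14 and 1.06).

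Without PreL replicate 2, 77 genes were higher than in each other group, 48 of them shared with the 50, and only Lpl and Gyg were lost. Without replicate 1 there were 33 (32 shared) and without replicate 3 there were 52 (38 shared). Replicate 2 was the lowest of PreL in 22 of the 29 genes added without it, which likewise follows from the choice. Among those added, chosen here after their values were seen, Tcf7l1, a transcription factor of WNT signalling, had 108, 61.1 and 88.8 CPM in PreL, against means of 45.1 in Undiff.Spg and 47.5 in Diff.Spg. Knstrn, a kinetochore gene, had 89.7, 62.1 and 91.4 CPM in PreL, against 20.7 to 44.5 as means of the other groups. Under each of the 27 alternatives 22 of the 50 stayed in the set, Esx1, Ptms, Melk, E2f2, Pou4f1, Tshz3, Ankle1 and Pias3 among them.

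The level of Esx1 over the 6 group means was followed most closely by Morc4 (Pearson r = 0.990), Dnajc9 (0.985) and Abce1 (0.981), out of 12752 genes with at least 10 CPM in a group. These are descriptions over 6 points that share their libraries. Morc4, a MORC ATPase gene on the X chromosome, had 48.7, 24.2 and 32.8 CPM in PreL, against 20.6 on average in Diff.Spg and 16.1 in LZ.

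Genes lower in PreL than in every other group numbered 163, or 0.879% of those tested. All PreL libraries stood below the 15 others for 131 of them, which follows largely from their choice by the same values. Of all tested genes, this held for 394 (2.12%). The closest group was LZ for 63, Diff.Spg for 41, RS for 26, PD for 19 and Undiff.Spg for 14. The highest group was Undiff.Spg for 71, PD for 48, RS for 35, Diff.Spg for 6 and LZ for 3. How often each group is the highest over all tested genes was not counted, so this split is not read as particular to the set. Of all genes, 23.2% were called lower in PreL than in Undiff.Spg, 37.9% than in PD and 40.1% than in RS. The shares against Diff.Spg and LZ were 16.5% and 14.6%. The set held 24 long non-coding RNAs (14.7%, against 10.9% of all tested genes). In 110 the PreL mean was under 1 CPM and in 6 it was at least 10 CPM. The median fold difference to the closest group was 2.89, and 2.82 with the 8 genes without a read in PreL set at their bound. For these 8, taking a floor of 3 reads over the 3 PreL libraries, PreL was at least 1.55-fold to 4.42-fold lower than the closest group. A further 22 genes had 1 to 3 reads in PreL in all, and the counting error of such genes is large.

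Spg21, whose human counterpart is mutated in Mast syndrome, a spastic paraplegia, had the largest smallest fall among genes with at least 10 CPM in each other group. It had 2.33, 3.95 and 5.71 CPM in PreL, against 20.6, 36.6 and 36.6 in LZ and 24.5, 21.8 and 24.2 in RS. Its levels were 32.3 to 34.5 CPM in Diff.Spg, 136 to 157 in Undiff.Spg and 19.5 to 31.2 in PD. PreL did not overlap any other group, and the smallest difference, to RS, was -2.57 ± 0.27 (adjusted p = 1.26e-07), or -2.58 without PreL replicate 2. Dbn1, which encodes the actin-binding protein drebrin, had 1.65, 5.93 and 2.5 CPM in PreL, against 14.3, 21.2 and 17.8 in LZ (-2.39 ± 0.32, adjusted p = 1.13e-05). Its replicate 2 was the highest of PreL, and without it the difference was -3.12. Ube2r2, a ubiquitin-conjugating enzyme gene, had 5.17, 5.44 and 5 CPM in PreL, against 14.5, 16.1 and 21 in RS and 133 to 139 in Undiff.Spg (-1.72 ± 0.16 to RS, adjusted p = 2.20e-08).

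The members of highest level encode a microtubule protein and nuclear proteins. Map4, a microtubule-associated protein gene, had 176, 180.4 and 151 CPM in PreL, against 352, 341 and 341 in Diff.Spg and 916 to 1104 in RS (-1.03 ± 0.14 to Diff.Spg, adjusted p = 1.86e-05). Zbtb44, a zinc finger gene, had 50.6, 58.2 and 42.1 CPM in PreL, against 88.5, 117 and 127 in LZ (-1.14 ± 0.13, adjusted p = 2.98e-06). Urb2, a gene of ribosome biogenesis, had 43, 47.4 and 27.3 CPM in PreL, against 95.2, 91.5 and 97.9 in Diff.Spg (-1.27 ± 0.17, adjusted p = 1.42e-05). PreL did not overlap any other group for these 3 genes. Asb8 had 11, 11.4 and 11.3 CPM in PreL, against 20.7 to 48.7 in the other 15 libraries. Single libraries and the scaling ended several of these calls. The smallest difference of Map4 was -0.95 without PreL replicate 3, that of Zbtb44 -0.96 without LZ replicate 3 and that of Asb8 -0.89 without PD replicate 2. Asb8 also came to just under 2-fold without LZ replicate 3, PD replicate 1 or any 1 of the RS libraries. With total library size as the scaling, the smallest differences were -0.64 for Asb8, -0.90 for Ube2r2 and Urb2 and -0.91 for Zbtb44. Map4 came to just under 2-fold with RLE scaling, with DESeq2 and on each contrast's own libraries. Dlgap3 and Dlgap4 encode postsynaptic scaffold proteins. Dlgap3 had 4.72 to 6.1 CPM in PreL, against a mean of 13.8 in LZ, and Dlgap4 had 5.23 to 9.45 CPM in PreL, against a mean of 18.7 in PD.

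**Figure D4:**
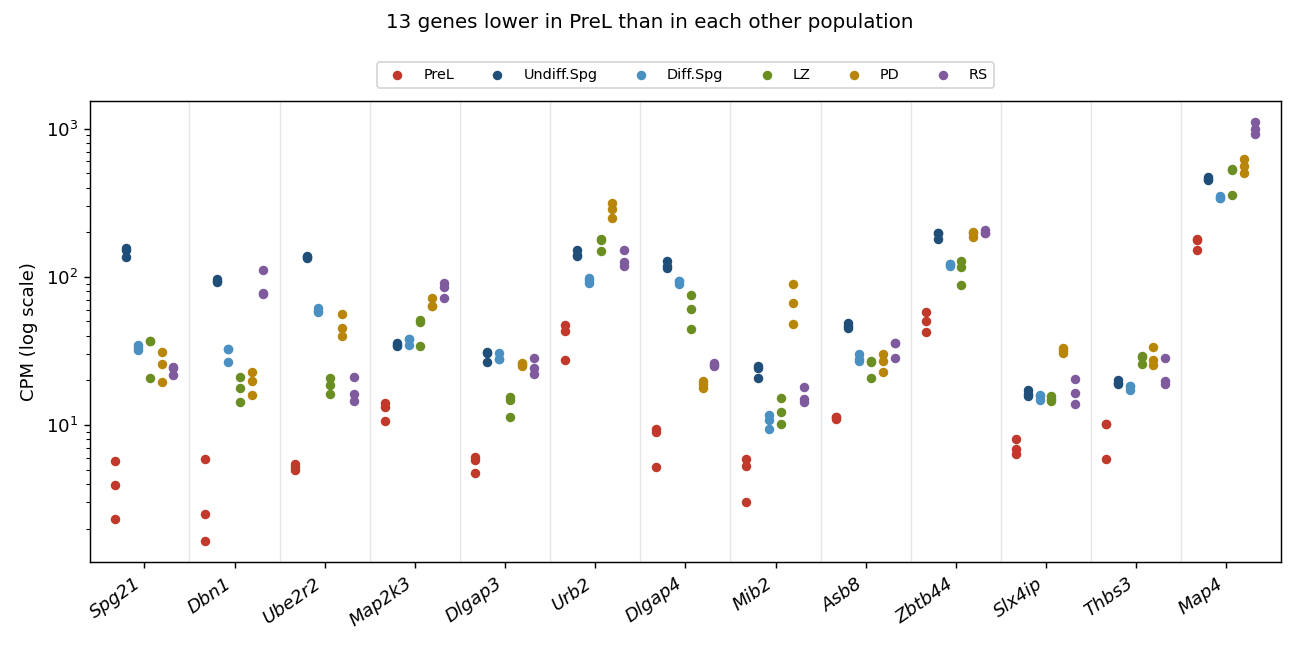
CPM on a log scale in each library for 13 of the 15 genes lower in PreL that had at least 10 CPM in each other group, leaving out those without a name of their own. For every gene the 3 PreL points lie below the points of the other 5 groups, largely as their choice implies. The fitted difference to the closest group is largest for Spg21 and Dbn1.

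The remaining 4 of the 13 named by that rule are Map2k3, a MAP kinase kinase gene (10.6 to 14.1 CPM in PreL), Mib2, Slx4ip and Thbs3. Just inside the threshold were Oprl1 (-1.01, lost with the replicate block at adjusted p = 0.0653) and Sbsn (-1.01), and just outside Myo7a and Glyctk (both -0.99).

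Among the settings that left out 1 library, the lower set counted most without PreL replicate 2. Without it 322 genes were lower than in every other group, 142 of them shared with the 163. There were 120 without replicate 1 (103 shared) and 148 without replicate 3 (121 shared). The 180 genes added without replicate 2 entered because that library was left out, so its higher level in them (the highest of PreL in 176) follows from how they were chosen. In 137 of the 180 the highest group was PD or RS, where this held for 83 of the 163. The part of the late transcripts of PreL replicate 2 in these counts was not tested.

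Among the added genes, 23 had at least 10 CPM in each other group, and these examples were chosen after their values were seen. Dnah8, a dynein heavy chain gene of the sperm tail, had 24.7, 189.6 and 44.2 CPM in PreL, against means of 79.7 in Diff.Spg, 111 in LZ and 7997 in PD. Its difference to the closest group was 0.11 with all PreL libraries and -1.21 without replicate 2. Ubxn10, a gene of cilium assembly, had 3.3, 31.5 and 5.71 CPM in PreL, against 12.7 in Diff.Spg and 1074 in RS, and moved to -1.51 without replicate 2. Dusp18, a phosphatase gene, had 5.86, 11.2 and 4.64 CPM in PreL, against 14.2 in LZ as its lowest other mean, and its difference was -0.97 with and -1.43 without that library. Under each of the 27 alternatives 39 of the 163 stayed in the set, with Spg21, Dbn1, Map2k3 and Dlgap3 among the 13 named.

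**Figure D5:**
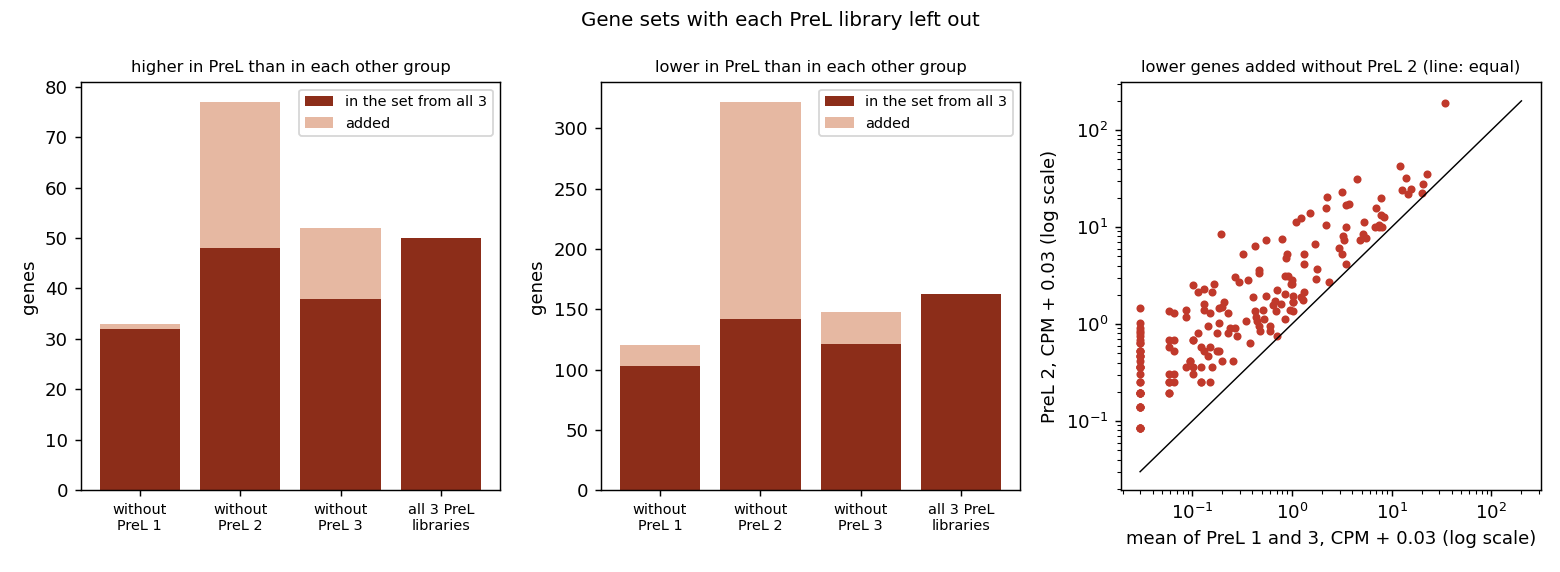
Number of genes higher (left) and lower (middle) in PreL than in each other group with each PreL library left out and with all 3, split into genes of the full set and genes added, and (right) the levels of the 180 added lower genes in PreL replicate 2 against the mean of replicates 1 and 3, as CPM + 0.03 on log axes. Leaving out replicate 2 gives the largest counts, 77 and 322, and the 180 added lower genes lie above the line of equal levels, as their choice implies.

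In the late list, with all libraries 11 of the 24 genes were called higher in PreL than in Undiff.Spg and 9 higher than in Diff.Spg. Without PreL replicate 2 these counts were 4 and 1. Of all genes, with all libraries, 17.6% and 9.2% were called higher. Against LZ 1 was called higher and 1 lower with all libraries (all genes 13.1% and 14.6%). Without PreL replicate 2 but with LZ replicate 2 kept, 0 were higher and 16 lower. With replicate 2 of both groups left out, 1 was higher and 10 were lower. Ldhc, the lactate dehydrogenase gene of late germ cells, had 11.8, 161 and 34.6 CPM in PreL, against 15.2, 148 and 22.9 in LZ and 5129 to 5713 in PD and RS. Replicates 2 of PreL and LZ were thus the highest of their groups.

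Markers of somatic testis cells varied between lists. The Sertoli list (11 of 14 genes tested) summed to 83, 78.3 and 113 CPM in PreL, against at most 133 in Undiff.Spg, 79.7 to 85 in Diff.Spg, 178 to 224 in LZ and 8.88 to 13.6 in PD and RS. Its members were called both ways. Gata4 and Dhh had at most 0.384 CPM in PreL. Clu, which other cells also express, had 12.9 to 13.8 CPM and Cldn11, a tight junction gene, 0.659 to 1.43 CPM in PreL, and both were called higher in 4 contrasts and lower than in LZ. Inhbb, an inhibin subunit gene, had 0.989 to 1.64 CPM and was called higher in 3 contrasts and lower than in Diff.Spg. The leukocyte list (5 of 10 tested) summed to 7.74 to 12.8 CPM in PreL, against 5.44 to 9.2 in Undiff.Spg, 3.24 to 4.61 in Diff.Spg, 34.4 to 54.8 in LZ and 2.46 to 5.52 in PD and RS. Most of it was Cd3e, a T cell receptor complex gene, with 11.5, 6.48 and 9.43 CPM in PreL, against 32.6 to 52.8 in LZ and 1.05 to 1.49 in Diff.Spg. It was called lower than in LZ and higher than in the other 4 groups. The peritubular list summed to 17.6 to 22.8 CPM in PreL, the Leydig list to 2.75 to 4.21 and the endothelial list to 0.682 to 1.21. The myoid marker Acta2 had no read in any PreL library, and the 1 tested erythroid gene, Alas2, had at most 0.341 CPM. The part of other cells in the results was not tested. The mitochondrially encoded genes summed to 38724, 21251 and 53661 CPM in PreL, again with replicate 2 apart, against 27054 to 28535 in Diff.Spg and 46943 to 78667 in LZ.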

How the data were processed

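RNA was measured in 18 libraries of 6 sorted populations. The authors deposited 1 table of unscaled counts, as whole numbers, for 46603 mouse gene IDs. HTSeq, STAR 2.4.2a, cutadapt, DESeq2 and the build GRCm38 are named, per the submitters' processing notes, with no role or order. Which annotation release, strand setting or filter was used is not given in the sources used here. Per the labels' protocols, libraries were read single-end on a HiSeq 2500. Reads carry no molecular identifiers, so floors cover counting error only. The columns were mapped to groups and replicates by the labels.

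Names and coordinates came from GENCODE M21, which matched 46091 IDs (98.9%). The 512 others took 0.048% to 0.109% of the reads and kept their IDs. Genes kept by filterByExpr entered 1 model of the 6 groups in edgeR 4.0.16 (R 4.3.3, TMM, glmQLFit, glmQLFTest, 2-sided). The common biological coefficient of variation was 0.2025. P-values were adjusted by Benjamini-Hochberg within each of 5 contrasts. Each SE was taken as the size of the log2 fold change divided by the root of its F. The fit was tested on simulated data. No pair of replicates within a group agreed within counting noise: their variance was 2.50 to 52.8 times that of counting.

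The members and the 27 gene lists were chosen with earlier results of these data known. Named genes are the 3 given markers, the set of 50, the 13 lower genes with the largest smallest fall and at least 10 CPM in each other group (leaving out Gm, Rik and mitochondrial genes), up to 4 members of each list called in 3 or more contrasts, 11 genes of meiosis, replication and Kit, neighbours of the thresholds and the 3 genes most like Esx1. Other genes were chosen after their values were seen. The settings tried beside these were RLE scaling, total library size, 2 other filters, a block for the replicate number, leaving out each of the libraries, DESeq2 1.42.0, each contrast on its own 6 libraries, no fold condition and, added after the data were seen, PreL replicate 2 left out together with LZ replicate 2 and list counts without PreL replicate 2 (for the late list against LZ, also without LZ replicate 2). Replicate numbers were checked for pairing by the correlation of deviations from group means. Libraries of equal number correlated at 0.228, 0.445 and 0.121 between PreL and Diff.Spg and at 0.455, 0.683 and 0.254 between PreL and LZ. Replicate 3 of both groups correlated more with PreL replicate 1, at 0.193 for Diff.Spg and 0.286 for LZ, than with PreL replicate 3. Replicate 2 thus stood out in these groups, and whether all the numbers pair the samples is not settled. With Undiff.Spg, PD and RS, equal numbers correlated at -0.144 to 0.223. Promoter sequences are RefSeq's.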

Additional observations from a re-analysis of the deposited data

How the results depend on the processing

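Among the results for single named genes, 13858 of 14305 values under the alternatives kept their side of the threshold. Of the others, 323 lost a call, 122 gained one and 2 reversed. Direction was compared only where a difference was called in the main fit or the alternative. A difference called in neither could change sign and still count as kept. The reversals are the difference of Pfkp between PreL and LZ, -1.60 without PreL replicate 2 (up to 1.37 with another library left out), and the smallest difference of Rpsa-ps10, -1.09 without PreL replicate 1 (up to 3.39). The lower set counted 91 genes with total library size (163 with TMM) and 64 with each contrast fitted on its own 6 libraries. It counted 296 without PreL replicate 2 and LZ replicate 2 together. Leaving out each library in turn gave 33 to 77 genes for the higher set and 120 to 322 for the lower set, in both cases with the highest count without PreL replicate 2. Without the 2-fold condition the higher set had 343 genes and the lower set 355. The calls without it were 5368 higher than in Undiff.Spg, 3784 higher and 4596 lower than in Diff.Spg, and 4302 higher and 4516 lower than in LZ. Of late germ cell genes, 11 were higher than in Undiff.Spg with all libraries and 4 without PreL replicate 2. In the same order, 9 and 1 were higher than in Diff.Spg, and 1 and 16 were lower than in LZ (10 without LZ replicate 2 as well). The cause of these changes was not tested. With all libraries, 17.6% of all genes were higher than in Undiff.Spg, 9.2% higher than in Diff.Spg and 14.6% lower than in LZ. Total library size moved the median of all genes to 0.20 (log2) against LZ, 0.45 against PD and 0.68 against RS, from 0.00, -0.11 and -0.09. RLE scaling moved it to -0.30 against RS. With the replicate number as a block the higher set had 49 genes and the lower set 158. Beside the calls given with their genes, the block ended those of Acta2 and Cenpa against Undiff.Spg and of Cd14 against RS, and changed no other call of a named gene. Genes at a few reads in PreL limit the lower set, since 110 of 163 stood under 1 CPM there.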

Other observations

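The 3 X-linked genes of the higher set, Tceal9, Zcchc18 and Esx1, lie within 0.877 Mb of each other (chrX:136245079-137122083, GRCm38), although the 750 tested genes of the chromosome span 164 Mb. This was noticed after the values were seen, and no test was made. The stretch holds 15 tested genes. Among them, Rab9b, H2bfm and Fam199x were called higher in PreL in 4 of the 5 contrasts, at means of 1.48, 18.2 and 28.8 CPM in PreL. Bex3 and BC065397 were called higher in 3 of 5, and Tceal1 and Gm8019, at 0.453 and 0.0604 CPM, in 0. Levels in the stretch thus ranged from near absent to 754 CPM for Esx1, and its genes were not all highest in PreL.

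Of 18 genes of cholesterol synthesis, 9 were called lower and 0 higher in PreL than in Undiff.Spg (all genes 23.2% lower), and 6 higher and 0 lower than in LZ (all genes 13.1% higher). The 3 called lower than in Diff.Spg are a share near that of all genes (16.5%). Against PD 11 were higher and 2 lower (all genes 34.4% and 37.9%), and against RS 11 higher and 4 lower (all genes 37.3% and 40.1%). Without PreL replicate 2, 7 were lower than in Undiff.Spg and 7 higher than in LZ. Mvd, a mevalonate pathway enzyme gene, had 19.7, 13.7 and 28.1 CPM in PreL, against means of 103 in Undiff.Spg, 105 in Diff.Spg and 2.79 in LZ. Fosl2, an AP-1 factor gene, had 52.3, 31 and 38.2 CPM in PreL, against 74.2 in Diff.Spg and 3.19 in LZ. Of 15 retinoic acid genes, 0 were called higher and 8 lower than in Diff.Spg (all genes 9.2% and 16.5%). Against Undiff.Spg 3 were higher and 7 lower (17.6% and 23.2%), and against LZ 2 higher and 3 lower (13.1% and 14.6%). Against PD 9 were higher and 3 lower (34.4% and 37.9%), and against RS 8 higher and 3 lower (37.3% and 40.1%). Crabp1, which encodes a retinoic acid binding protein, had 122, 81.9 and 205 CPM in PreL, against means of 319.9 in Diff.Spg and 33.5 in LZ.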
